A study of Mus musculus with 576 samples.

Results

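The genes described here are 45 genes of G2 phase and mitosis, chosen by name from the 49466 genes of a single-cell count table: every gene whose symbol is on a list of mitotic cyclins and kinases, spindle checkpoint and kinetochore genes, condensins, spindle motors and cytokinesis genes. The list used no measured value of the table, but it was chosen with earlier results of these data known. All 45 genes were found and passed the filter on low counts. Polyadenylated RNA was sequenced from single wells of 6 plates of 96 wells, 1 plate for each day and treatment. The cells came from the fetal liver of C57/Bl6J mice at embryonic day 14.5, after antibody depletion of other lineages and a sort for CD117, CD71 and CD24 that enriched burst forming unit-erythroid (BFU-E) cells, the early committed progenitors of the red cell lineage. The medium of all 6 groups held erythropoietin (2 U/mL), insulin-like growth factor 1 (40 ng/mL) and stem cell factor (100 ng/mL). The 3 control groups received no dexamethasone and were taken after 24, 48 and 72 hours, called days 1, 2 and 3. The 3 dexamethasone groups received the synthetic glucocorticoid dexamethasone at 100 nM and were taken at the same times. No genotype other than the strain is given.

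Cells pass through G2 phase after copying their DNA and then divide in mitosis. Cyclins A and B bind and activate the kinase CDK1, which drives entry into mitosis. Condensins compact the chromosomes, kinetochores attach them to spindle microtubules, and the spindle checkpoint holds the cell until all are attached. The anaphase promoting complex then marks cyclin B for destruction, the sister chromatids part, and the midzone of the spindle directs cytokinesis. Most of these genes are transcribed mainly in late S phase, G2 and M, where the DREAM and B-MYB-MuvB complexes, FOXM1 and NF-Y act on their promoters. Erythroid progenitors divide many times before they leave the cell cycle, and glucocorticoids are known to prolong the renewal of BFU-E cells in culture.

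After filtering, 94, 96 and 93 control cells and 94, 92 and 94 dexamethasone cells of days 1, 2 and 3 remained, with 66140 to 3757116 counts per cell and 88158683 to 116554686 counts per plate on the 20040 genes tested. Expression is given in CPM, the counts of a gene summed over the cells of a plate and scaled by library size with TMM factors. The 13 late erythroid genes were globin, heme synthesis and red cell membrane genes with Tfrc, Car2 and Trim10. Their summed CPM were 3264, 20577 and 34887 in control against 2099, 3951 and 11671 in dexamethasone, in the order of the days. Much of the day 1 sums came from Tfrc (1358 CPM in control, 783 in dexamethasone) and Car2 (1033 and 841 CPM). The 10 early progenitor markers summed to 949.5, 436 and 390 CPM against 1071, 1210 and 729.9 CPM. Control day 2 stood apart in other markers. The summed level of 12 neutrophil and monocyte markers was 5.59 CPM there, with 6 of the 12 at 0 counts (Elane, Ctsg, Lyz2, S100a8, S100a9 and Ly6c2), against 348 to 1893 CPM on the other 5 plates. Mast cell markers were at 0 counts on that plate and at 2.56 to 146 CPM on the others. Macrophage markers summed to 7.25 to 16.8 CPM, lymphoid markers to 3.47 to 40.3 CPM and hepatocyte markers to 0.724 to 3.94 CPM over the 6 plates. The part of these markers in the results below was not tested. Results are therefore also given without the cells that held at least 100 CPM of the neutrophil and monocyte markers (21, 2 and 13 control cells and 13, 9 and 10 dexamethasone cells), and without day 2.

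Summed over the cells of a plate, most mitotic genes were lower with dexamethasone on every day, and their median was lowest on day 2. The median of the 45 within-day log2 ratios of dexamethasone over control was -0.35, -1.14 and -0.71 on the successive days. Over all tested genes these medians were 0.00, 0.04 and 0.03. The ratio was below 0 for 42, 45 and 44 of the 45 genes on days 1, 2 and 3. On day 2 it was at or below -1, a halving, for 29 of the 45 genes, where 15% of all tested genes and 6.91% of the more abundant genes, those averaging 50 CPM or more, were so low. On day 3 this held for 8 genes (13.7% and 5.59%) and on day 1 for 0 (11.7% and 0.993%). Each day has 1 plate per treatment, so a single day's ratio has no test. In such plate sums, fewer cells with a transcript and less of it per cell cannot be told apart. The cells themselves are described further on. Other measures moved with the treatment: the 10 megakaryocyte markers summed to 523, 246 and 198 CPM in control against 538, 706 and 438.5 CPM in dexamethasone. The median mitochondrial share of counts was 3.91%, 3.47% and 3.38% against 3.93%, 4.61% and 5.69%, and a median cell had 8119, 7556 and 6961 genes detected against 8924, 8829 and 8520.5. Their part in the result, and that of the late erythroid genes above, was not tested.

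Over the 3 days, 41 of the 45 genes were lower with dexamethasone on each day, against 16.2% of all tested genes and 29.8% of the more abundant genes. The exceptions were Mad2l1, Ttk and Cenpa, higher on day 1, and Anln, higher on day 3. For 30 of the 45 genes every dexamethasone plate was below every control plate, against 5.44% of all tested genes and 11.1% of the more abundant ones. Without day 2 these counts were 41 (background 25.2%) and 32 (background 12.5%). Without the control day 2 plate alone the plates were apart for 30 genes (background 8.57%). Leaving out plates can only keep or raise such counts and their background. The 15 genes whose plates overlapped were Mki67, Ccnb2, Mad2l1, Ttk, Cenpa, Cenpe, Ncaph, Kif20b, Kif23, Nusap1, Cdc25b, Ube2c, Anln, Hmmr and Dlgap5.

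None of the 45 genes passed the main test of dexamethasone against control over the days, edgeR's quasi-likelihood test with day as a term. Their Benjamini-Hochberg adjusted p in this edgeR test ran from 0.457 to 0.902, and 0 of the 20040 genes tested passed. At an unadjusted p under 0.05 in the same edgeR test, 35 of the 45 genes were lower, against 5.82% of all genes, and 0 were higher, against 4.51%. The edgeR log2 fold change was below 0 for 44 of the 45 genes, with a median of -0.74 against 0.07 over all tested genes. It was -0.76 without the cells at 100 CPM or more of neutrophil and monocyte markers. Fitted to the 4326 genes averaging 50 CPM or more, edgeR called 0.462% lower and 0.416% higher, and 0 of the 44 mitotic genes among them. DESeq2 with the same terms called 29 of the 45 genes lower and 0 higher, against 3.78% and 2.5% of all genes. Most of these calls were lost without a day 2 or day 3 plate. DESeq2 called 2 of the genes lower without the control day 2 plate, where 0.994% of all genes it tested were called lower, and 3 without the dexamethasone day 2 plate (1.13%). It called 11 without the control day 3 plate (1.36%) and 11 without the dexamethasone day 3 plate (1.33%). It called 39 without the control day 1 plate (3.88%), 39 without the dexamethasone day 1 plate (3.84%) and 33 without the marker-holding cells (4.64%). With 1 plate per day and treatment, the p-values weigh the mean treatment difference against its spread between the days. That spread may hold real change with time as well as technical differences between plates. The labels do not state if different plates hold different animals or cultures.

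**Figure D1:**
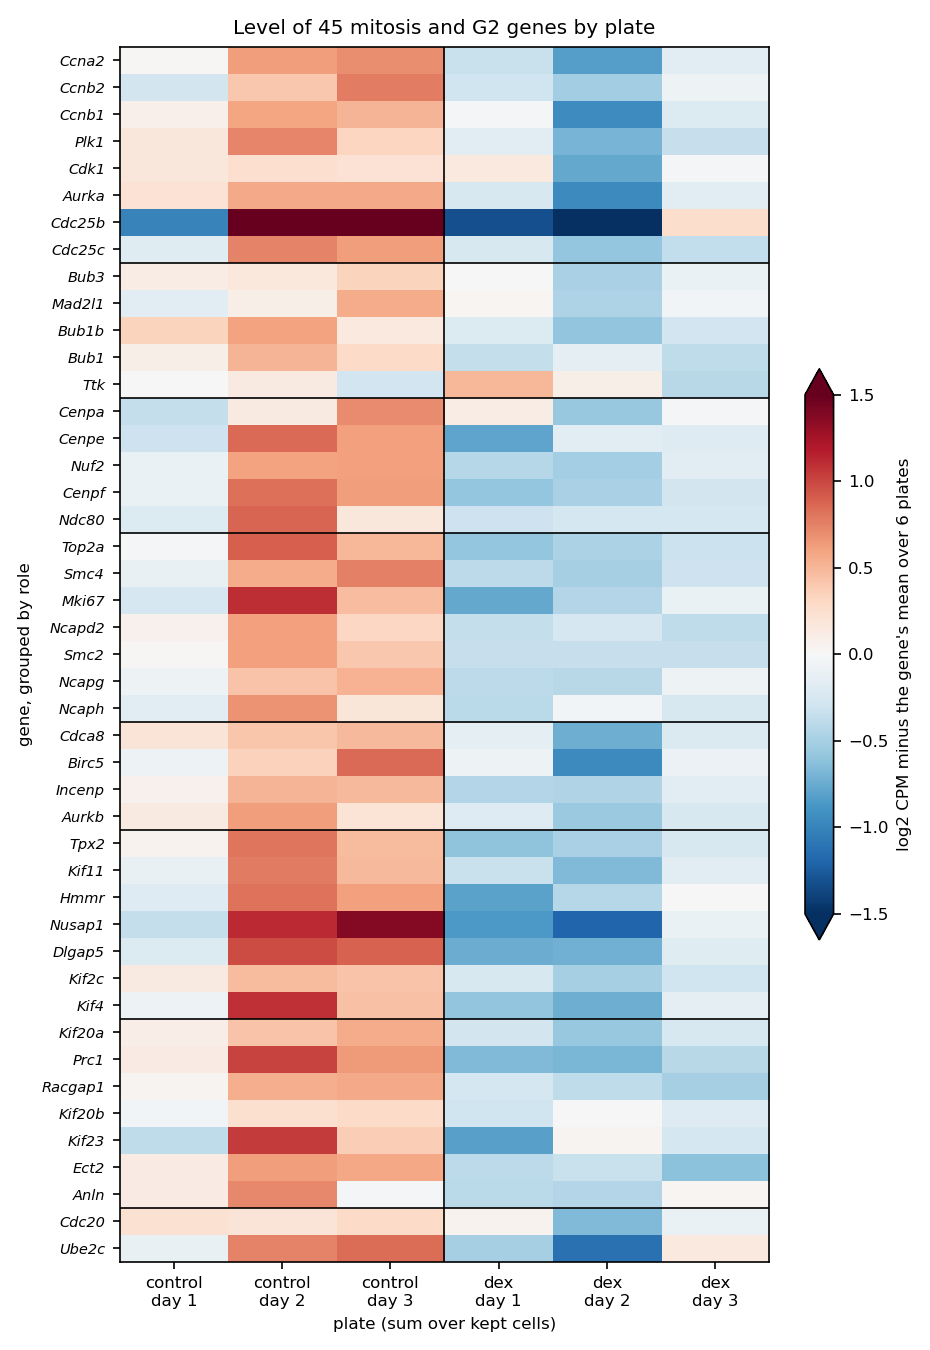
Heatmap of the 45 genes (lines, grouped by role) in the 6 plates (columns, control days 1 to 3 and dexamethasone days 1 to 3); colour is the log2 CPM of the plate minus the mean of that gene over the plates, limited to 1.5 on either side. The columns of control days 2 and 3 hold the highest value of 27 and 17 of the 45 genes (15.3% and 21.8% of all tested genes). The lowest value is in dexamethasone day 2 for 28 genes, a count without a background over all genes.

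The 8 cyclins and mitotic entry kinases together summed to 1947, 3122 and 3205 CPM in control (days 1, 2 and 3, the order of all such values) against 1657, 1110.4 and 1751 CPM in dexamethasone. All 8 were lower with dexamethasone on each day (16.2% of all genes), 6 with no overlap of plates (5.44% of all genes). Their median log2 ratios were -0.21, -1.44 and -0.78. Ccna2 encodes cyclin A2, which partners CDK2 in S phase and CDK1 in G2, and was the most abundant of them. It had control plates of 723, 1102 and 1157 CPM and dexamethasone plates of 566, 403 and 638 CPM. All dexamethasone plates were below all control plates, with day 2 lowest. The edgeR log2 fold change of Ccna2 was -0.89 (SE 0.24) and the DESeq2 adjusted p was 0.00714. Ccnb1, the cyclin B1 that activates CDK1, had control plates of 295, 424 and 399 CPM and dexamethasone plates of 274, 146 and 243 CPM, also without overlap. On day 1 its plates differed by a log2 ratio of only -0.11, and on day 2 by -1.54. Ccnb2, the cyclin B2 gene, had control plates of 242, 387 and 501 CPM and dexamethasone plates of 238, 204 and 279 CPM. Here the day 3 dexamethasone plate was above the day 1 control plate. DESeq2 adjusted p was 0.0651 for Ccnb1 and 0.0883 for Ccnb2.

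Of the kinases, Plk1, which drives centrosome maturation and mitotic entry, had control plates of 247, 364 and 273 CPM and dexamethasone plates of 194, 135 and 173 CPM. Aurka, the Aurora A kinase of the centrosome, was at 156, 199 and 198 CPM in control against 113, 69.2 and 120.4 CPM. Both genes had all dexamethasone plates lowest, with DESeq2 adjusted p of 0.0213 for Plk1 and 0.0105 for Aurka. Cdk1 itself differed less. It had control plates of 197, 209 and 203 CPM and dexamethasone plates of 193, 103 and 174 CPM, and its 3 control plates lay close together. Its log2 ratios were -0.03, -1.02 and -0.23, with a DESeq2 adjusted p of 0.327.

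The phosphatases that remove the inhibitory phosphates from CDK1 differed from each other in size. Cdc25c had control plates of 55.6, 106 and 98.1 CPM and dexamethasone plates of 53.7, 42.2 and 48.9 CPM. Cdc25b had control plates of 31.2, 331 and 376 CPM and dexamethasone plates of 25.1, 8.25 and 75.1 CPM. Cdc25b was thus low on both day 1 plates and high on control days 2 and 3 only, and the dexamethasone day 3 plate exceeded the control day 1 plate. Its log2 ratios of -0.31, -5.32 and -2.32 gave the largest log2 fold change of the 45 genes, -2.57 (SE 1.16), and a DESeq2 adjusted p of 0.165.

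Spindle checkpoint genes showed the smallest differences of the 8 role groups. Their summed level was 955, 1114 and 1121 CPM in control against 861, 682 and 792 CPM in dexamethasone, and the median log2 ratios were -0.12, -0.65 and -0.43. Bub3, the adaptor that brings BUB1 and BUBR1 to the kinetochore, had control plates of 321, 331 and 373 CPM and dexamethasone plates of 295, 211 and 278 CPM, without overlap. Bub1b, the BUBR1 gene, was at 227, 275 and 199 CPM against 157, 119.6 and 147 CPM, also without overlap. Bub1, the checkpoint kinase that marks centromeres for cohesion, stood at 172, 231 and 199 CPM against 127, 147 and 125 CPM, with no overlap either. Bub1b and Bub1 were called by DESeq2 (adjusted p of 0.018 and 0.00352), and Bub3 was not (adjusted p of 0.145 in DESeq2). Mad2l1, the MAD2 gene whose product inhibits CDC20, had control plates of 189, 226 and 312 CPM and dexamethasone plates of 216, 154 and 206 CPM. Ttk, the MPS1 kinase at the top of the checkpoint, was at 46.8, 51.6 and 38.6 CPM against 66.5, 49.8 and 35.1 CPM. The groups overlapped for both. Both were higher with dexamethasone on day 1, where the log2 ratio was 0.20 for Mad2l1 and 0.51 for Ttk. Ttk was the only gene of the 45 with a log2 fold change above 0 (0.11, SE 0.19), and this sign turned to -0.09 without day 1.

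Centromere and kinetochore genes summed to 512, 916 and 927 CPM in control against 499, 459 and 549.6 CPM in dexamethasone, with median log2 ratios of -0.33, -1.12 and -0.78. Cenpa, the histone H3 variant that marks centromeres, had control plates of 167, 236 and 349.8 CPM and dexamethasone plates of 231, 145 and 209 CPM. The dexamethasone plate was higher on day 1, by a log2 ratio of 0.47, and lower on days 2 and 3, and the groups overlapped. Cenpe, a kinetochore motor that moves chromosomes to the spindle equator, was at 117, 262 and 223 CPM against 83.6, 129 and 127 CPM. Its dexamethasone plates were lower on each day, and the 2 later ones were above control day 1. Nuf2, part of the NDC80 complex that holds microtubules, was at 102, 166 and 167 CPM against 81.2, 76.8 and 97.2 CPM. Cenpf, a large kinetochore protein that accumulates in G2, was at 65.2, 124 and 108 CPM against 46.7, 49.8 and 57.6 CPM. For both genes every dexamethasone plate was below every control plate, as for Ndc80, the partner of Nuf2. DESeq2 adjusted p was 0.00128 for Cenpe, 0.014 for Nuf2 and 0.00351 for Cenpf.

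The 7 chromosome structure genes summed to 2051, 3598 and 3002 CPM without and 1541, 1638 and 1783 CPM with dexamethasone. Top2a, the topoisomerase that untangles sister chromatids, had control plates of 553, 1042 and 789.8 CPM and dexamethasone plates of 375, 401 and 447 CPM. Smc4, a core subunit of the condensins, was at 334, 529 and 605 CPM against 274, 254 and 290.4 CPM. In both genes all 3 dexamethasone plates were below all control plates, with log2 fold changes of -0.92 (SE 0.19) and -0.80 (SE 0.20). Mki67, whose product Ki-67 coats mitotic chromosomes, was at 248.8, 638 and 408 CPM against 175, 219 and 278 CPM. It was lower with dexamethasone on each day, and its dexamethasone day 3 plate exceeded control day 1. The other condensin genes Ncapd2, Smc2, Ncapg and Ncaph had log2 fold changes from -0.70 for Smc2 to -0.46 for Ncaph. DESeq2 called 6 of the 7 genes lower, all but Ncaph (adjusted p of 0.0747 in DESeq2), against 3.78% of all genes.

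All 4 genes of the chromosomal passenger complex, which corrects wrong kinetochore attachments and later acts at the midzone, had plates that did not overlap. Every dexamethasone plate was below every control plate, as for 5.44% of all genes. Cdca8, which encodes borealin, had control plates of 315, 368 and 388 CPM and dexamethasone plates of 249.7, 166 and 237 CPM. Birc5, which encodes survivin, was at 185, 246 and 349 CPM against 184, 100.4 and 183 CPM, so that the day 1 plates were almost equal. Aurkb, the Aurora B kinase of the complex, was at 185, 260.1 and 194 CPM against 147, 114 and 142 CPM. Incenp, the scaffold, was at 178, 242 and 238 CPM against 125, 125 and 151 CPM. DESeq2 called Cdca8 and Incenp (adjusted p of 0.0122 and 0.00174), and gave an adjusted p of 0.0719 for Birc5 and 0.0532 for Aurkb.

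Spindle motors and microtubule proteins were the role group in which DESeq2 called all members lower, 7 of 7, against 3.78% of all genes. Their sum was 914, 1764 and 1553 CPM in control against 645, 635 and 871 CPM in dexamethasone. Tpx2, an activator of Aurora A that nucleates spindle microtubules, was at 275, 464 and 369 CPM against 174, 189 and 224 CPM. Kif11, the motor that pushes spindle poles apart, was at 167, 309.9 and 254 CPM against 143, 114 and 160.4 CPM. Hmmr, a microtubule-binding spindle protein, was at 153, 306 and 268 CPM against 99.7, 129 and 174 CPM. The plates did not overlap for Tpx2 and Kif11, whereas for Hmmr the dexamethasone day 3 plate was above control day 1. Kif4, a chromosome-bound motor, was at 63.3, 143 and 90.5 CPM against 44.3, 40.3 and 60.8 CPM, and Kif2c, which takes microtubules apart at centromeres, had a log2 fold change of -0.69.

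Nusap1 and Dlgap5, both of which bundle and stabilise spindle microtubules, differed most within this group. Nusap1 had control plates of 85.8, 239 and 285 CPM and dexamethasone plates of 60.04, 48.0 and 102 CPM. Dlgap5 had control plates of 87.9, 200.4 and 187 CPM and dexamethasone plates of 60.7, 61.6 and 89.6 CPM. In both genes the overlap consisted of the dexamethasone day 3 plate lying above control day 1, and every within-day difference was below 0. The log2 fold change was -1.44 (SE 0.38) for Nusap1 and -1.10 (SE 0.26) for Dlgap5, with DESeq2 adjusted p of 0.00119 and 0.00162.

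Midzone and cytokinesis genes summed to 932, 1433 and 1277 CPM in control against 685, 705 and 725 CPM in dexamethasone. Prc1, which crosslinks the antiparallel microtubules of the midzone, had control plates of 172, 319 and 246 CPM and dexamethasone plates of 99.4, 97.9 and 118 CPM. The lowest control plate, 172 CPM, was above the highest dexamethasone plate, 118 CPM, and the log2 ratio was -0.79, -1.71 and -1.06. Prc1 had the smallest DESeq2 adjusted p of the 45 genes, 3.74e-05, with an edgeR log2 fold change of -1.19 (SE 0.22). Kif20a, a midzone motor that carries the passenger complex, was at 234, 294 and 320.2 CPM against 181, 147 and 185 CPM. Racgap1, part of the centralspindlin complex, was at 171, 242 and 247 CPM against 138, 128 and 118 CPM. Neither overlapped, nor did Ect2, which activates RhoA at the cleavage furrow and had a log2 fold change of -0.89. The motor Kif23, the partner of RACGAP1, had a log2 fold change of -0.68. Kif20b, a cytokinesis motor, was at 114, 138 and 143 CPM against 95.3, 117 and 102 CPM, where the dexamethasone day 2 plate was above control day 1. Anln, the anillin scaffold of the contractile ring, had log2 ratios of -0.53, -1.16 and 0.05. DESeq2 called neither Kif20b nor Anln (adjusted p of 0.191 and 0.243).

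Cdc20 activates the anaphase promoting complex at anaphase, and Ube2c is its ubiquitin-conjugating enzyme. Cdc20 had control plates of 371, 362 and 385 CPM and dexamethasone plates of 329, 199 and 294 CPM. Its control plates were nearly level and all were above the dexamethasone plates. Ube2c had control plates of 245, 439.5 and 469 CPM and dexamethasone plates of 186, 121 and 292 CPM, with the dexamethasone day 3 plate above control day 1. DESeq2 called Ube2c (adjusted p of 0.0225) and not Cdc20 (adjusted p of 0.113).

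**Figure D2:**
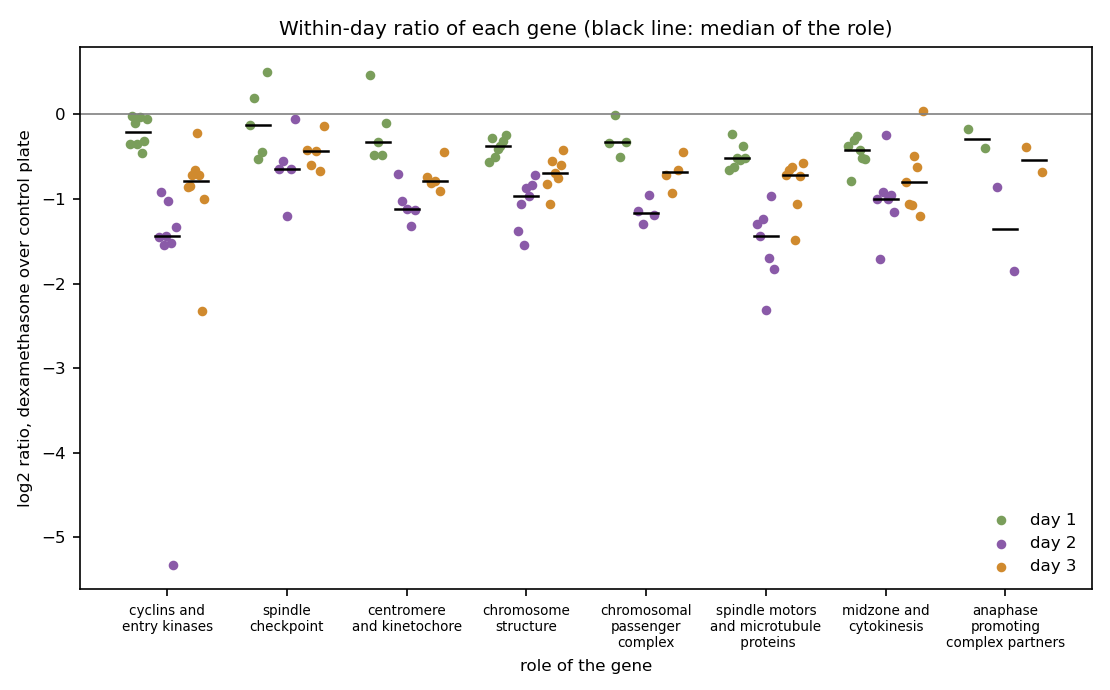
Log2 ratio of dexamethasone over control CPM for each of the 45 genes (points) on days 1, 2 and 3 (colours), by role, with a black line at the median of the role on each day. The median of the 45 genes is lowest on day 2, at -1.14, while some genes, such as Ect2 and Racgap1, are lowest on day 3. Cdc25b lies far below the other genes on days 2 and 3.

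On a scale per length, which allows levels of different genes to be compared, the mitotic cyclins stood at the top. Ccnb2 was at 201 CPM per kilobase over the 6 plates, Ccna2 at 187 and Cdc20 at 173. Cenpf, at 4.87 CPM per kilobase, Anln at 7.34 and Ttk at 9.77 were far lower. Of the 45 genes, 26 overlap another annotated gene, and the strand setting of the counting is not given, so reads of overlapping genes may have been exchanged. Counted pseudogenes took little: Ccnb1-ps held 2095 counts (1.1% of those of Ccnb1), Ccnb2-ps 289 counts (0.145%) and Kif4-ps 15 counts.

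In control culture, 44 of the 45 genes were higher on day 2 than on day 1, all but Cdc20, against 48.8% of all tested genes, with a median log2 ratio of 0.59. From day 2 to day 3 of control 17 were higher (background 47.5%), with a median of -0.09. With dexamethasone 15 of the 45 were higher on day 2 than on day 1 (background 52.7%) and the median was -0.14. From day 2 to day 3 of dexamethasone 34 were higher (background 49%), with a median of 0.34. The summed level of the 45 genes was 8789, 13864 and 13107 CPM in control against 7109, 6056 and 7771 CPM in dexamethasone. Control day 2 was the highest plate for 27 genes (background 15.3%), control day 3 for 17 (background 21.8%) and dexamethasone day 1 for Ttk. The lowest plate was dexamethasone day 2 for 28 genes, dexamethasone day 1 for 12 and dexamethasone day 3 for 5. The lowest plate was not counted over all tested genes, so these 3 counts have no background. A difference between the courses could not be tested with 1 plate per group.

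Across both treatments, edgeR called 0 of the 45 genes, and 0 of all genes, for day 2 or day 3 against day 1, with smallest adjusted p among the 45 of 0.296 and 0.210. At an unadjusted p under 0.05 edgeR gave 5 of the 45 as higher on day 2 (6.16% of all genes) and 3 on day 3 (7.04%), and 0 as lower on either day (6.04% and 7.47%). DESeq2 called Cenpe (adjusted p 0.00265) and Kif23 (adjusted p 0.000151) higher on day 2 and 0 lower, where 4.12% of all genes were called higher and 3.61% lower. Their log2 fold changes were 0.90 and 1.15. For day 3 DESeq2 called Cenpe (adjusted p 0.0116), Nusap1 (adjusted p 0.0434) and Hmmr (adjusted p 0.0171) higher and 0 lower, against 5.28% and 5% of all genes. Fitted to the genes averaging 50 CPM or more, edgeR called Cenpe (adjusted p 0.0428) and Kif23 (adjusted p 0.0298) higher on day 2, against 3.68% of those genes (1.71% lower). For day 3 this edgeR fit called Cenpe (adjusted p 0.0425) and Hmmr (adjusted p 0.0436) higher, against 7.44% (5.15% lower).

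Related genes not among the 45 were described by lists chosen for their role. For comparison, 5.44% of all tested genes had every dexamethasone plate lowest and 7.14% every one highest, and DESeq2 called 3.78% lower and 2.5% higher. Of 51 other G2 and M genes, 48 had a log2 fold change with dexamethasone below 0, with a median of -0.54, and 23 had all dexamethasone plates below all control plates. DESeq2 called 16 of these 51 lower and 0 higher. Hjurp, the chaperone of CENP-A, had control plates of 256, 513 and 315 CPM and dexamethasone plates of 216, 281 and 228 CPM. Ccnf, the F-box protein cyclin F, was at 226, 362 and 310.3 CPM against 157, 129.8 and 186 CPM, and Tacc3, a spindle protein bound by Aurora A, at 226, 299 and 320.0 CPM against 183, 138 and 206 CPM. Ccnf did not overlap between treatments, and neither did Tacc3, while for Hjurp the dexamethasone day 2 plate was above control day 1. Zwint, a kinetochore gene, had a log2 fold change of -0.30. The largest were in the low genes Troap (-1.08) and Depdc1a (-1.001).

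Of 18 regulators of G2 and M transcription and entry, 16 had a log2 fold change below 0, with a median of -0.31, 3 had all dexamethasone plates lowest (5.44% of all genes), and DESeq2 called 1 of the 18 lower, near the 3.78% of all genes, and 0 higher. That 1 gene was Foxm1, a transcription factor that activates mitotic genes, at 18.9, 37.9 and 25.5 CPM in control against 11.5, 11.3 and 14.7 CPM in dexamethasone. The plates of Foxm1 did not overlap, and its log2 fold change was -1.08 (SE 0.30, DESeq2 adjusted p 0.0168). The log2 fold change was -0.05 for Rbbp4 and -0.20 for Tfdp1, both subunits of DREAM, and -0.42 for Nfyb, a subunit of NF-Y. Fbxo5, the EMI1 inhibitor of the anaphase promoting complex, was at 116, 189 and 227 CPM against 118, 75.7 and 108 CPM, a log2 fold change of -0.80. Mybl1, a relative of B-MYB, was at 0.0781, 2.16 and 0.392 CPM against 0.939, 3.28 and 3.59 CPM, too low to rank beside the others.

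The 15 core subunits of the anaphase promoting complex lay on both sides of 0. Their median log2 fold change was -0.18, with 9 below 0, 4 with all dexamethasone plates lowest and 2 with all of them highest (5.44% and 7.14% of all genes). DESeq2 called 1 of the 15 lower, near the share of all genes, and 0 higher. Anapc5, the called subunit, had control plates of 509, 593 and 652 CPM and dexamethasone plates of 381, 306 and 404 CPM. Anapc11, the RING subunit, was higher with dexamethasone at 41.7, 39.5 and 49.96 CPM against 27.1, 32.4 and 34.9 CPM. The values of Anapc1 (log2 fold change -0.18), Cdc23 (-0.35) and Anapc2 (-0.40) lay between them.

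Of 40 S phase genes, 39 had a log2 fold change below 0, the median was -0.44, 15 had all dexamethasone plates lowest (5.44% of all genes), and DESeq2 called 13 lower (3.78% of all genes) and 0 higher. Rrm2, the regulated subunit of ribonucleotide reductase, had control plates of 1318, 1935 and 2337 CPM and dexamethasone plates of 1096, 812 and 969 CPM. The log2 fold change was -0.62 for Rrm1, its large subunit, -0.56 for Mcm6 and -0.60 for Mcm2, of the replicative helicase, and -0.76 for Cdc6, which loads it. Of the 40, 23 were higher on control day 2 than on control day 1, near the 48.8% of all genes. Whether the S phase and the mitotic genes differ was not tested.

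Of 9 genes of p21 and G1 arrest, 8 had a log2 fold change below 0 (median -0.61), 0 had all dexamethasone plates lower (5.44% of all genes), and DESeq2 called 2 lower and 0 higher (3.78% and 2.5% of all genes). Cdkn1a, the p21 inhibitor of cyclin-dependent kinases, had control plates of 90.2, 501 and 607 CPM and dexamethasone plates of 54.4, 438 and 346 CPM (DESeq2 adjusted p 0.0341). Btg2, an antiproliferative gene, was at 30.8, 289 and 408 CPM against 13.9, 108 and 133 CPM (DESeq2 adjusted p 1.38e-12). Ccng1, a p53 target cyclin, was on the other side, at 285, 709.5 and 775 CPM against 310.2, 1159 and 1074 CPM. Cdkn1a and Btg2 were lowest on day 1 in both treatments, so that the treatments overlapped. They also overlapped for the CDK4 and CDK6 inhibitor genes Cdkn2d, at 18.9, 53.6 and 64.6 CPM against 24.7, 27.6 and 27.5 CPM, and Cdkn2c, which stayed under 5 CPM.

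In single cells the mitotic genes were summarised as a score, the mean over the 45 genes of log2(CPM + 1). The median score was 6.56, 6.60 and 5.83 in control cells of days 1, 2 and 3 and 6.30, 5.85 and 5.75 in dexamethasone cells. The median cell with dexamethasone was thus lower by 0.25, 0.75 and 0.08, and cells of the 2 treatments overlapped widely on each day. With 10 CPM added in place of 1 the day 3 difference was -0.27. On days 2 and 3 the upper end of the cells differed more than the median. On day 2 so did the lower end, with a difference of -1.57 at the 10th percentile. On day 1 the upper end differed less than the median. With cells thinned to 620000 counts this day 1 order turned, at -0.35 for the 90th percentile and -0.33 for the median. The 90th percentile of the score was 7.51, 8.68 and 8.71 in control against 7.31, 7.30 and 7.71 in dexamethasone, which is lower by 0.19, 1.37 and 1.00. At the 10th percentile the score was 5.19, 4.59 and 2.68 in control against 4.69, 3.02 and 2.91 in dexamethasone. The day 3 difference at the 10th percentile, 0.23, had no settled sign: it was -0.085 with cells thinned to 620000 counts and -0.78 without cells holding at least 2 neutrophil and monocyte markers. The SD over cells was 1.17, 1.63 and 2.10 in control against 1.09, 1.57 and 1.80 in dexamethasone. By role, the day 3 difference of the median scores lay on both sides of 0. It was 0.24 for midzone and cytokinesis, 0.17 for centromere and kinetochore and 0.12 for passenger complex genes. Spindle checkpoint genes had 0.09 and spindle motors and microtubule proteins 0.02. It was -0.34 for chromosome structure, -0.39 for cyclins and entry kinases and -0.47 for Cdc20 and Ube2c. For the other G2 and M genes it was 0.09. With 1 plate per group there is no test, and cells are not replicates.

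The day 3 difference of the score moved with the cells kept. Leaving out cells with at least 2 of the 12 markers left 30 control and 48 dexamethasone cells on day 3, a control median of 6.61 and a difference of -0.73 in place of -0.08. Leaving out only cells at 100 CPM or more of these markers gave a difference of -0.11. The part of these cells in the day 3 difference was not tested further.

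**Figure D3:**
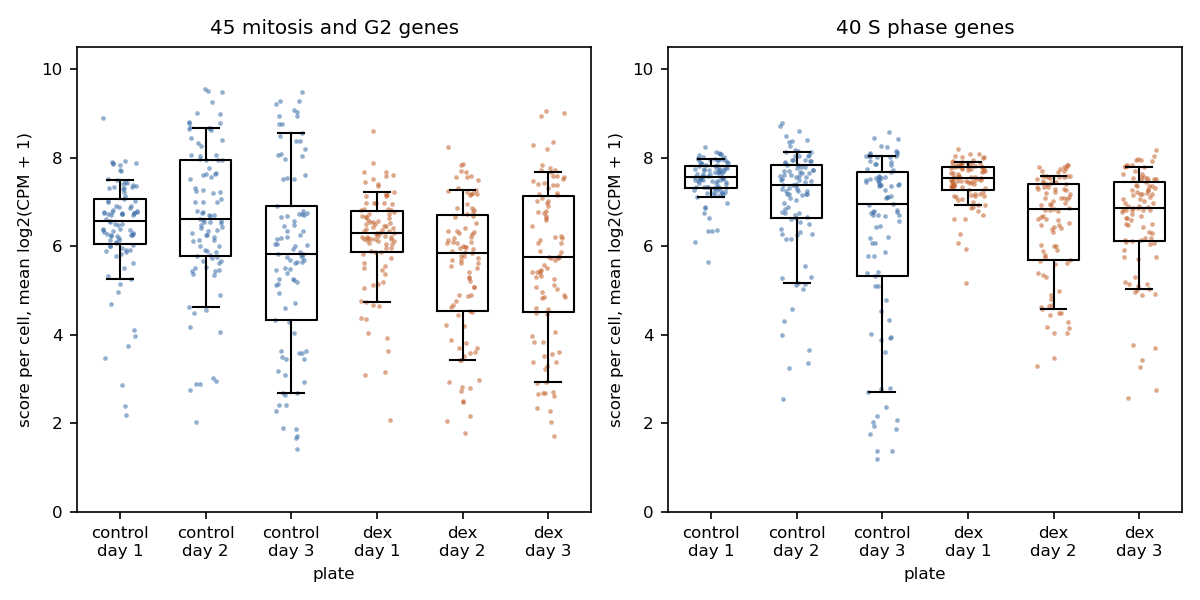
Score per cell (mean log2(CPM + 1)) of the 45 mitotic genes (left) and of 40 S phase genes (right) in control (blue) and dexamethasone (orange) cells of each day; points are cells, boxes the quartiles with the median, and whiskers reach the outermost cells within the 10th to 90th percentile. The mitotic scores of control cells on days 2 and 3 reach higher than those with dexamethasone, with 90th percentiles of 8.68 and 8.71 against 7.30 and 7.71.

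The share of cells above the upper quartile of all control cells, a score of 7.35, was 17.02%, 33.3% and 24.7% in control against 10.6%, 9.78% and 21.3% in dexamethasone. The exact 95% binomial intervals, which cover counting error only, were 24% to 43.7% for control day 2 and 4.57% to 17.8% for dexamethasone day 2, and on days 1 and 3 those of the 2 treatments overlapped. The S phase score had medians of 7.55, 7.38 and 6.95 in control and 7.53, 6.83 and 6.87 with dexamethasone. Cells under the 10th percentile of control day 1 in both scores made up 2.13%, 10.4% and 25.8% of control cells and 3.19%, 27.2% and 29.8% of dexamethasone cells. The exact intervals of day 2, 5.11% to 18.3% and 18.4% to 37.4%, did not overlap. Once cells with at least 2 neutrophil or monocyte markers were left out, the day 3 shares were 10% in control (3 of 30 cells) and 25% in dexamethasone (12 of 48), in place of 25.8% and 29.8%. This class is a range of a score and not a cell type, and 37 cells lay within 0.25 of its limit on the mitotic score.

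Gene by gene, the median over cells was lower with dexamethasone for 37, 43 and 31 of the 45 genes on days 1, 2 and 3. Of the genes averaging 50 CPM or more this held for 48.8%, 35% and 27.1%. The 90th percentile over cells was lower for 38, 45 and 45 of the 45 (background 59.3%, 61.4% and 77%), by a median log2 difference of -0.33, -1.11 and -0.81. On day 3 the difference of the medians over cells was smaller, at -0.28.

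Cdc25b had a count in fewer cells with dexamethasone than without, above all on day 2. A count was found in 40 of 94, 88 of 96 and 90 of 93 control cells on days 1, 2 and 3, or 42.6%, 91.7% and 96.8%. With dexamethasone it was found in 31 of 94, 21 of 92 and 65 of 94 cells, or 32.98%, 22.8% and 69.1%. Exact 95% intervals of days 2 and 3 did not overlap between treatments, at 84.2% to 96.3% against 14.7% to 32.8% and at 90.9% to 99.3% against 58.8% to 78.3%. These intervals cover counting error only, with 1 plate per group, and cells are not replicates. Thinned to 620000 counts per cell the shares were 36.7%, 78.2% and 91.01% against 28.9%, 19.3% and 64.7%. On dexamethasone day 2 a single cell held 37.5% of the Cdc25b counts of the plate. Ccnb2, by contrast, had a count in 98.9% to 100% of the cells of every plate.

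Nusap1 differed at its upper end. Its median over cells was 38.4, 82.5 and 41.9 CPM in control against 36.7, 20.6 and 37.5 CPM in dexamethasone. The 90th percentile was 181, 730 and 1133 CPM in control against 131, 148 and 275 CPM in dexamethasone. Day 3 medians were therefore close, while the upper cells of control were far above those of dexamethasone. Ttk went the other way on day 1, with a count in 72.3% of control and 91.5% of dexamethasone cells. The shares of Ttk were 66.7% and 46.2% on control days 2 and 3 against 68.5% and 68.1%.

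Mitotic genes were set beside erythroid maturation through a score of the 13 late erythroid genes, with medians of 3.69, 8.47 and 9.88 in control and 2.87, 4.24 and 6.33 with dexamethasone. Within plates, Spearman's rho across the 92 to 96 cells is given as a description, and both scores share a cell's library and depth. Between the mitotic and the late erythroid score rho was 0.34, 0.30 and -0.23 in control against 0.40, -0.27 and -0.04 in dexamethasone. It was positive for 42, 43 and 13 of the 45 genes on the control plates and for 41, 4 and 28 on the dexamethasone plates. The sign thus changed between days in both cultures. The mitotic score also had a rho of -0.12 to 0.66 with the number of genes detected in a cell.

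Among single genes, Cdc25b had a rho with the late erythroid score of 0.79 on control day 2 and 0.64 on control day 3, but 0.01 on control day 1 and 0.02, 0.07 and 0.35 with dexamethasone. Nusap1 had 0.08, 0.45 and 0.21 in control and 0.12, 0.06 and 0.12 with dexamethasone. For Ccnb1 the values were 0.36, 0.29 and -0.11 in control and 0.34, -0.30 and 0.02 with dexamethasone. On control days 2 and 3, cells with more Cdc25b thus had higher late erythroid scores, and Ccnb1 had rho of 0.29 and -0.11 on the same plates.

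**Figure D4:**
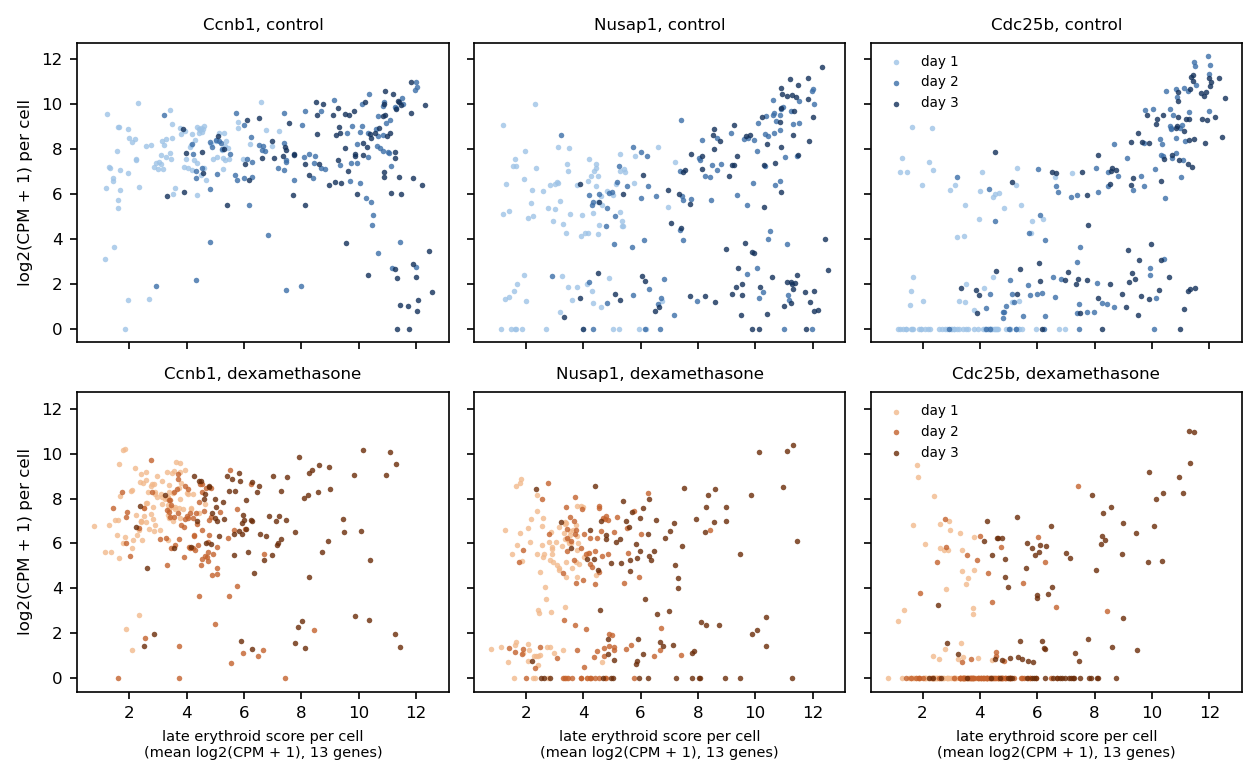
Level per cell of Ccnb1, Nusap1 and Cdc25b (vertical axis, log2(CPM + 1)) against the late erythroid score of 13 genes (horizontal axis, mean log2(CPM + 1)) in control (top) and dexamethasone (bottom) cells, shaded by day. Cdc25b is higher in control cells of high score (rho of 0.79 on day 2), and Ccnb1 spans its range at low and high scores.

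The mitotic genes varied together across the cells of a plate. The 990 pairs of the 45 genes had a median rho of 0.39, taking for each pair the median of the 6 plates. Pairs of other genes were not computed, so this median has no background. All genes of a cell also share its library and depth. The 118 pairs within a role had a median of 0.40 and the 872 pairs of unlike roles 0.39. The highest pairs were Top2a with Smc4 (0.76), with Aurkb (0.74), with Prc1 (0.73), with Cdk1 (0.71) and with Kif11 (0.69), and Ccnb1 with Ube2c (0.69). Top2a and Ccnb2 had the lowest value, -0.04. Set against the mean of the other 44 genes, Ccnb1 followed them most closely (0.81, from 0.76 to 0.89 over plates), then Kif11 (0.78). Ccnb2 (0.19), Cdc25b (0.28) and Ttk (0.36) followed them least.

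**Figure D5:**
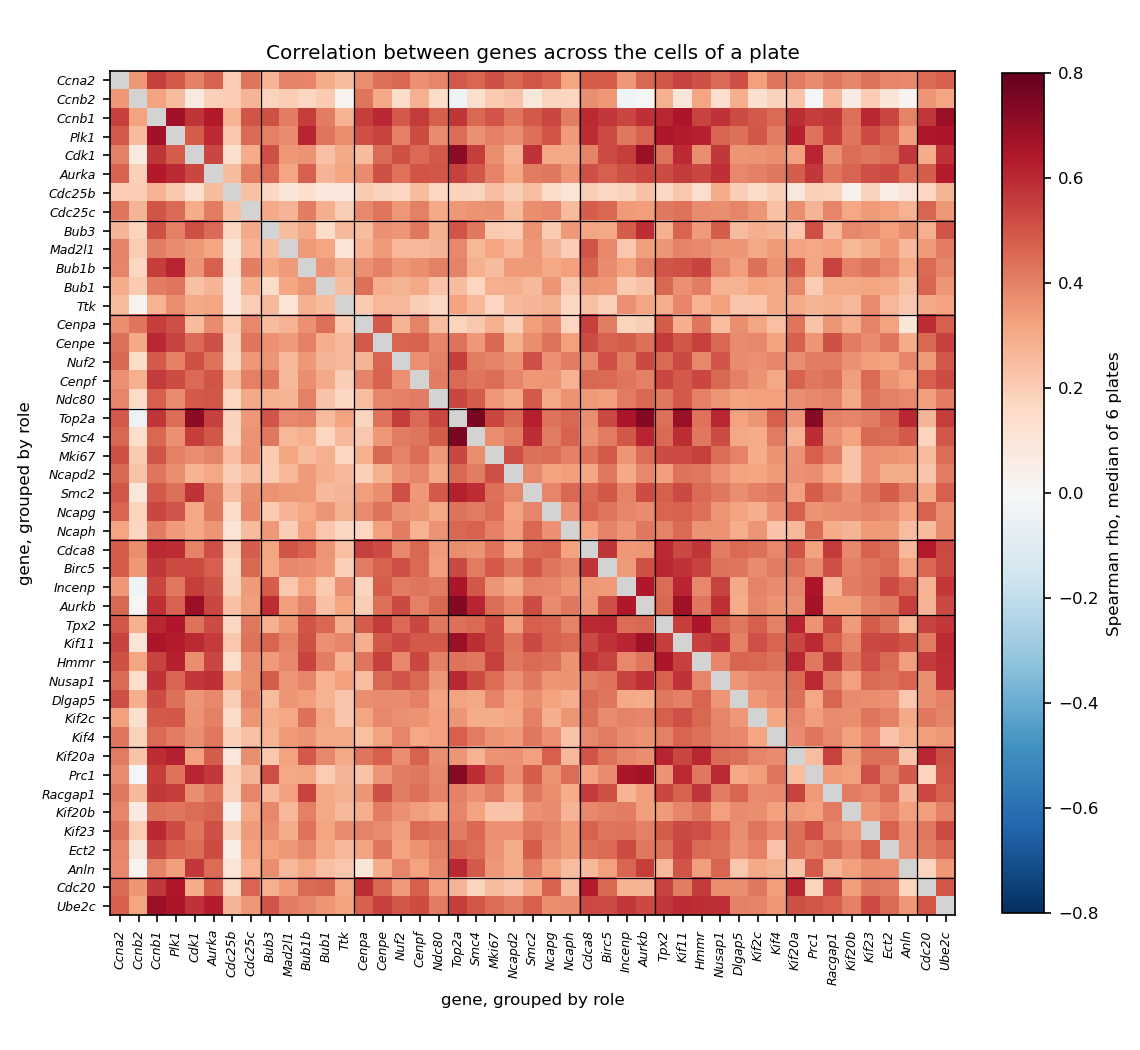
Spearman's rho across cells for each pair of the 45 genes, as the median of the 6 plates, with the genes in order of role on both axes. Most squares are positive, with a median of 0.39, and the lines of Ccnb2, Cdc25b and Ttk are pale.

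Of 4282 other genes averaging 50 CPM or more, those that followed the mitotic score most closely across cells were Ccnf (mean rho over plates 0.67), Ckap2l (0.65), Kif18b (0.64), Kif22 (0.63), Spc25 (0.62), Cdca2 (0.61), Sgo1 (0.60), Ankle1 (0.60), Kpna2 (0.60) and Tacc3 (0.59). Of these 10, 8 were on the list of other G2 and M genes, all but Ankle1 and Kpna2. The median over all candidates was 0.05 and the 95th percentile 0.21. The lowest were Arhgdib (-0.32), Ung (-0.29), Paip2 (-0.28), Srgn (-0.27) and Pabpc1 (-0.27). Ung encodes a uracil glycosylase of replicating DNA and Srgn a granule proteoglycan of blood cells.

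Promoters of the genes were read because the 45 genes were lower together and because G2 and M promoters are known to hold a cell cycle homology region, whose core is TTTGAA, and CCAAT boxes bound by NF-Y. RefSeq promoter windows of the mouse build GRCm38.p6 were matched for 37 of the 45 genes. Shown are 100 bases before and 25 bases from the transcription start, 5′ to 3′ on the strand of the gene, with TTTGAA and CCAAT in capitals. A match on the opposite strand reads TTCAAA or ATTGG. The first 5 genes hold both motifs, Ccnb1 and Cdc25b hold CCAAT alone, and Nusap1, among the genes that differed most, holds neither.
Ccnb2 (chr9:70421530-70421654, minus strand): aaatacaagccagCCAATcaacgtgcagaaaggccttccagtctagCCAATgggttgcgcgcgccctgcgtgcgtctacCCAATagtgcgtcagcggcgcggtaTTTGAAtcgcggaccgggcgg
Cdk1 (chr10:69352888-69353012, minus strand): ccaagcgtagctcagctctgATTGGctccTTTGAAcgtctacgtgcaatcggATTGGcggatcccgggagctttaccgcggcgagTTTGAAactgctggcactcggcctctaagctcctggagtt
Cdc20 (chr4:118437319-118437443, minus strand): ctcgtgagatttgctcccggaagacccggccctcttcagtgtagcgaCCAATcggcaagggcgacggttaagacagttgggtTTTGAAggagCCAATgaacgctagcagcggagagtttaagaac
Prc1 (chr7:80294351-80294475, plus strand): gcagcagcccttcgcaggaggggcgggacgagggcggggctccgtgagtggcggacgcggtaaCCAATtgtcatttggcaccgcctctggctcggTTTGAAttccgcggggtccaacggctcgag
Hmmr (chr11:40733413-40733537, minus strand): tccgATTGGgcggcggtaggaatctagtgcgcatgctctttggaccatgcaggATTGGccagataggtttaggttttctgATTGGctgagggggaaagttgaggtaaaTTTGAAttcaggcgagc
Ccnb1 (chr13:100786462-100786586, minus strand): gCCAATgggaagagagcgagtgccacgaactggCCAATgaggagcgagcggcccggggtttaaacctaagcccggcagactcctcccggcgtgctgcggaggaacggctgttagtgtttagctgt
Cdc25b (chr2:131186848-131186972, plus strand): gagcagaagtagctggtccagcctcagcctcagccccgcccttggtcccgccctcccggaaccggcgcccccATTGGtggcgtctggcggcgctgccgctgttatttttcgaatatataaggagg
Nusap1 (chr2:119618198-119618322, plus strand): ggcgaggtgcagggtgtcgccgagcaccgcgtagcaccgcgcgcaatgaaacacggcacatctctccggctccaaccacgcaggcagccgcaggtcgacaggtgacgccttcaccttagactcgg

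In Ccnb2 3 CCAAT motifs begin 33 bases apart, and TTTGAA follows 5 bases past the start. In Cdk1 the 2 ATTGG motifs begin 32 bases apart and each is followed by TTTGAA. Hmmr holds 3 ATTGG motifs, with gaps of 49 and 27 bases, and TTTGAA 9 bases past the start. Ccnb1 holds 2 CCAAT motifs 32 bases apart, and these letters hold no TTTGAA. A match of letters is a description and not evidence that a factor binds.

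Among the 37 genes, TTTGAA on either strand was found from 100 bases before to 50 after the start in 26 (70.3%), against 8.08% of the windows of all 27025 genes. CCAAT on either strand was found there in 24 (64.9%) against 24.0%, and both motifs in 19 (51.4%) against 1.92%. In the whole window, from 250 bases before to 50 after, both motifs were found in 24 (64.9%) against 7.12%, and more than 1 CCAAT in 18 (48.6%) against 12.2%. The 2 motifs can share at most 1 base, at their ends. TTTGAA near the start was found in 57.5% of 40 other G2 and M genes, 16.7% of 12 regulators, 7.14% of 14 subunits of the anaphase promoting complex, 15.2% of 33 S phase genes and 0 of 8 genes of p21 and G1 arrest.

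Whether the motifs were related to the size of the dexamethasone difference in the 37 genes was not tested. The values below group the genes by exact letter matches only, and genes without a promoter window are left out. The median log2 fold change was -0.77 for the 19 genes with both motifs near the start, -0.68 for the 12 with 1 of them and -0.72 for the 6 with neither. Cdc25b lay in the middle group and Nusap1 in the last, together with Mad2l1, Ncaph, Kif2c, Birc5 and Nuf2. The ranges of the 3 groups overlapped, from -1.19 to 0.11 with both, from -2.57 to -0.33 with 1 and from -1.44 to -0.32 with neither.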

How the data were processed

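Whole-number counts per gene and well were deposited by the authors; the submitters' processing notes name GRCm38, featureCounts and STAR 2.4. Strand setting and annotation release: not given in the sources used here. No molecular identifiers are stated, so intervals cover counting error only. Of 576 value columns 575 matched a labelled well and 1 was not used. An empty header cell, which gave the header 1 field too many, was left out. Read this way the control plates of days 1 to 3 had 263, 4972 and 8965 CPM of Hbb-bs and the dexamethasone plates 22.2, 340 and 3294 CPM. A reading shifted by 1 column would give 4972, 8965 and 22.2 CPM for control. Every result rests on the reading used.

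Wells with at least 50000 counts, 1500 genes and at most 20% mitochondrial counts were kept as cells, which removed 12 wells. No doublet caller was run, since cells were sorted into wells. Counts were summed per plate and fitted with edgeR 4.0.16 in R 4.3.3 (quasi-likelihood test, day and dexamethasone as terms, TMM, filterByExpr, 2 residual degrees of freedom, Benjamini-Hochberg adjustment at 0.05). This design, tested on simulated data of 20040 genes, found 54 of 100 genes changed by a log2 fold of 1 and 100 of 100 changed by 2, with 4 false calls. The spread between simulated plates was set well below that of the real plates, and no day effect was simulated. The common biological coefficient of variation of the real fit was 0.725. The simulation therefore does not show how many such changes would be found in these data. DESeq2 1.42.0, library size scaling, other filters on genes and cells and leaving out each plate or day were the alternatives. Daily ratios are of TMM-scaled CPM with a prior count of 2. The 45 genes and the other lists were chosen with earlier results of these data known. Named with values in every plate were the 3 most abundant genes of each role, the 8 with the largest and 4 with the smallest dexamethasone log2 fold change. Of each other list the 4 most abundant and the 2 with the largest change were named, and the 10 genes most and 5 least like the score across cells. Other genes were named after their values were seen.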

Additional observations from a re-analysis of the deposited data

How the results depend on the processing

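The direction of the dexamethasone difference held for 44 of the 45 genes under the alternatives run, and the number of calls did not. DESeq2 called 1258 genes (501 higher, 757 lower) and 29 of the 45, in place of 0 and 0 with edgeR, and 1606 genes and 33 of the 45 without cells at 100 CPM or more of neutrophil and monocyte markers. With edgeR on genes averaging 50 CPM or more, 38 genes were called. Leaving out each day or plate gave 0 genes and 0 of the 45 with edgeR, and with DESeq2, chosen after seeing the data, up to 1629 genes and 39 of the 45. The DESeq2 counts without 1 plate were as low as 414 genes, without dexamethasone day 2, and 2 of the 45, without control day 2. For day 2 against day 1 DESeq2 called 1550 genes and 2 of the 45, and edgeR at 50 CPM 233 and 2. For day 3 the counts were 2061 and 3, and 545 and 2. With 1 plate left out edgeR called 0 genes for either day. The median log2 fold change of the 45 genes ranged from -0.96 to -0.54 for dexamethasone, from -0.13 to 0.54 for day 2 and, the sign turning without control day 1, from -0.0218 to 0.65 for day 3. Leaving out a day or plate can only keep or raise the number lower on each day and the number without overlap of plates. They ranged from 41 to 44 and from 30 to 43, and the shares of all genes can likewise only stay or rise. With library size scaling alone these counts were 38 and 28. The log2 fold change of Ttk, 0.11 and up to 0.23 without day 3, turned to -0.09 without day 1, -0.12 without control day 1 and -0.09 without dexamethasone day 1, and with DESeq2 to -0.12 without either day 1 plate. The day 2 difference of the score per cell was -1.14 as a mean over cells. The day 3 difference of the score, -0.08, was -0.73 without cells holding at least 2 neutrophil and monocyte markers. That rule left 30 control and 48 dexamethasone cells on day 3. The difference was -0.11 without cells at 100 CPM or more of these markers and -0.27 with a pseudocount of 10 CPM. The causes of these changes were not tested. No paired analysis was possible because the replicate numbers in the labels name wells, which were summed into 1 plate per day and treatment. The 2 plates of a day are matched by the day term, which every fit held. With 2 residual degrees of freedom, a gene that was not called may still have differed.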
